A study of Mus musculus with 10 samples.

Results

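The genes described here are 9 mouse Toll-like receptor (TLR) genes and Unc93b1, the chaperone of the receptors that act in endosomes. They were the rows of the deposited count table whose symbol is Tlr1, Tlr2, Tlr3, Tlr4, Tlr6, Tlr7, Tlr8, Tlr9, Tlr13 or Unc93b1, 10 of 56980 rows, and all 10 passed the filter on low counts. The RNA came from mouse macrophages, 5 libraries labelled WT and 5 of mice labelled JAMLMKO, here called KO, in which the junctional adhesion molecule-like gene Jaml is the target. The titles do not spell out MKO, which was taken here as macrophage knockout, whereas their genotype tag says knockdown. Both genotypes received lipopolysaccharide (LPS; 8 h, 100 ng/ml) followed by ATP (30 min, 5 mM), so every value below describes stimulated cells. The labels name no Cre driver, no tissue of origin and no age, and do not say whether the 5 libraries of a genotype came from separate mice, so p-values here reflect only library-to-library spread, part or all of which may be technical.

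The table heads 5 columns WT and the other 5 SI, a heading the labels do not explain. They were assigned to KO by elimination, and each direction below rests on that. Jaml itself had 0 to 2 counts in every library, under a floor of 3 counts, so it could not check the labels. The libraries held 19319512 to 22766319 counts. KO 1 and KO 3 had the highest scaling factors, and results were repeated without them. Every KO factor (1.02 to 1.07) lay above every WT factor (0.948 to 0.969), which leaving out KO 1 and KO 3 does not change. The summed level of 8 macrophage markers was 24059 to 25618 CPM (counts scaled to library size with TMM factors) in WT and 23076 to 25067 CPM in KO. Most of that sum is Lyz2, and of the 8 Csf1r and Cd14 were called higher in KO while Fcgr1 (log2 fold change -1.62) and Mertk (-0.33) were called lower. Markers of B cells, T and NK cells and dendritic cells were low. The 5 B cell markers summed to 0.205 to 1.23 CPM in WT and 0.358 to 0.737 CPM in KO, and the 5 T and NK cell markers to at most 0.161 and 0.353 CPM. The 5 markers of plasmacytoid dendritic cells summed to 3.13 to 4.61 and 3.24 to 4.13 CPM, mostly Ccr9 and Cox6a2, with Siglech and Klk1 at 0 in every library. The 6 of conventional dendritic cells summed to 1.07 to 2.12 and 1.21 to 1.98 CPM, mostly Zbtb46 and Clec9a, with Xcr1 and Cd209a at 0. Of 6 neutrophil markers 2 could be tested and both rose, S100a8 and Camp. The list sums were 14.6 to 18.9 CPM in WT and 22.6 to 26.9 CPM in KO, mostly S100a8. S100a9, Ly6g, Retnlg and Ltf had only 3 to 20 counts each over all libraries together. Of 5 mast cell markers 3 could be tested and 2 fell, Cpa3 and Cma1, with list sums of 4.25 to 7.80 and 1.77 to 3.18 CPM. The 6 mesothelial and fibroblast markers, of which 2 rose and 1 fell, summed to 351 to 392 and 365 to 468 CPM and were thus not low. Col1a1 alone averaged 245 CPM in WT and 318 CPM in KO, above the means of Tlr1, Tlr3, Tlr4, Tlr6, Tlr8 and Tlr9. The part of these other cells in the results below was not tested.

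TLRs are membrane receptors that recognise microbial molecules and start inflammatory transcription. TLR1, TLR2, TLR4 and TLR6 act mainly at the cell surface, where TLR2 pairs with TLR1 or TLR6 to bind bacterial lipopeptides and TLR4 binds LPS with its partner MD-2. TLR3, TLR7, TLR8, TLR9 and TLR13 act in endosomes and bind nucleic acids, and UNC93B1 escorts them there from the endoplasmic reticulum. All of these receptors except TLR3 signal through the adaptor MyD88, and TLR3 uses TRIF.

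RefSeq promoters (build GRCm38.p6, 250 bases before to 50 bases after a start) were at hand for 7 of the 10 genes, 9 promoters in all. Those of Tlr3, Tlr9 and Tlr2 are shown because Tlr3 and Tlr9 had the largest fold changes of the family whereas Tlr2, its most abundant receptor, had a small one. All are written 5′ to 3′ on the strand of the gene, with capitals where 1 of 4 motifs, searched on both strands, was found. In the Tlr3 promoter (chr8:45410331-45410630, minus strand) the capitals mark a kappa B motif and, further on, an interferon regulatory factor core (AANNGAAA, here on the opposite strand).
Tlr3: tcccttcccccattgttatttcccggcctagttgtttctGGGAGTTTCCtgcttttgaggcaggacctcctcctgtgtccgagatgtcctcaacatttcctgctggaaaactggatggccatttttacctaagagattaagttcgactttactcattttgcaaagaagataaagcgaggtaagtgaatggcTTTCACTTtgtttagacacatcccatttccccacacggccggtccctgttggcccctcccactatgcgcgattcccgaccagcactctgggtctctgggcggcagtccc
In the Tlr9 promoter (chr9:106222348-106222647, plus strand) they mark an AP-1 motif (TGACTCA) and a PU.1 motif (GAGGAAGT, opposite strand).
Tlr9: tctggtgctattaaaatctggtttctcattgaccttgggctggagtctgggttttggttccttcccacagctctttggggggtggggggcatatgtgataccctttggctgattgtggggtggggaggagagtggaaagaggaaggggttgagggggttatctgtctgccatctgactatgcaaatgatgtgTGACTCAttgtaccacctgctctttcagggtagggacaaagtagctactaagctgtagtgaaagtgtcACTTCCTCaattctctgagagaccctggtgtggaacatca
In the Tlr2 promoter (chr3:83841559-83841858, minus strand) they mark a kappa B motif, which reads alike on both strands, between a pair of interferon regulatory factor cores.
Tlr2: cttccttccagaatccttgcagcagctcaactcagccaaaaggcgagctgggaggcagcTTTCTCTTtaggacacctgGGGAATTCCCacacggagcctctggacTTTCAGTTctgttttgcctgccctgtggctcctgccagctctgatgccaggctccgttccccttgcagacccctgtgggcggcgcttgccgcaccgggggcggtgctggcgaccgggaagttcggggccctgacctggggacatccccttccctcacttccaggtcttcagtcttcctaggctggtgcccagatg

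The kappa B motif was found in 2 of the 9 promoters, those of Tlr2 and Tlr3, and in 1.2% of all 32851 promoters of the same length. The interferon regulatory factor core was found in 4 of the 9, belonging to Tlr1, Tlr2, Tlr3 and Tlr6, and in 23.9% of all promoters. The AP-1 motif was found in the Tlr9 promoter alone among the 9 and in 5.2% of all, and the PU.1 motif in 2 of the 9, of Tlr1 and Tlr9, and in 3.2% of all. No match to these 4 motifs lay in the Tlr8 or Tlr13 promoter. A match describes letters in this window and is not a measured site, and a link to the changes in KO was not tested.

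KO macrophages had less RNA of 9 of the 10 genes, and the 10th, Tlr4, did not pass the test. The largest decreases were those of the endosomal receptors Tlr3, 3.08-fold lower, and Tlr9, 2.36-fold lower. Tlr2, Unc93b1 and Tlr13, the most abundant of the 10 per gene length (by the lengths described below), were 1.23-fold, 1.27-fold and 1.14-fold lower. Over the family the median log2 fold change, KO minus WT, was -0.51, against 0.01 over all 14436 genes tested. In the same edgeR quasi-likelihood test 29.1% of all genes were called at an adjusted p under 0.05, 15% lower and 14.1% higher in KO, whereas none of the 10 was higher, also at an unadjusted p under 0.05. For 7 of the 10 genes every KO value lay below every WT value, a separation in that direction seen for 12.4% of all genes tested (23.3% in either direction). In bulk RNA, fewer cells of a type and less RNA per cell cannot be told apart.

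**Figure D1:**
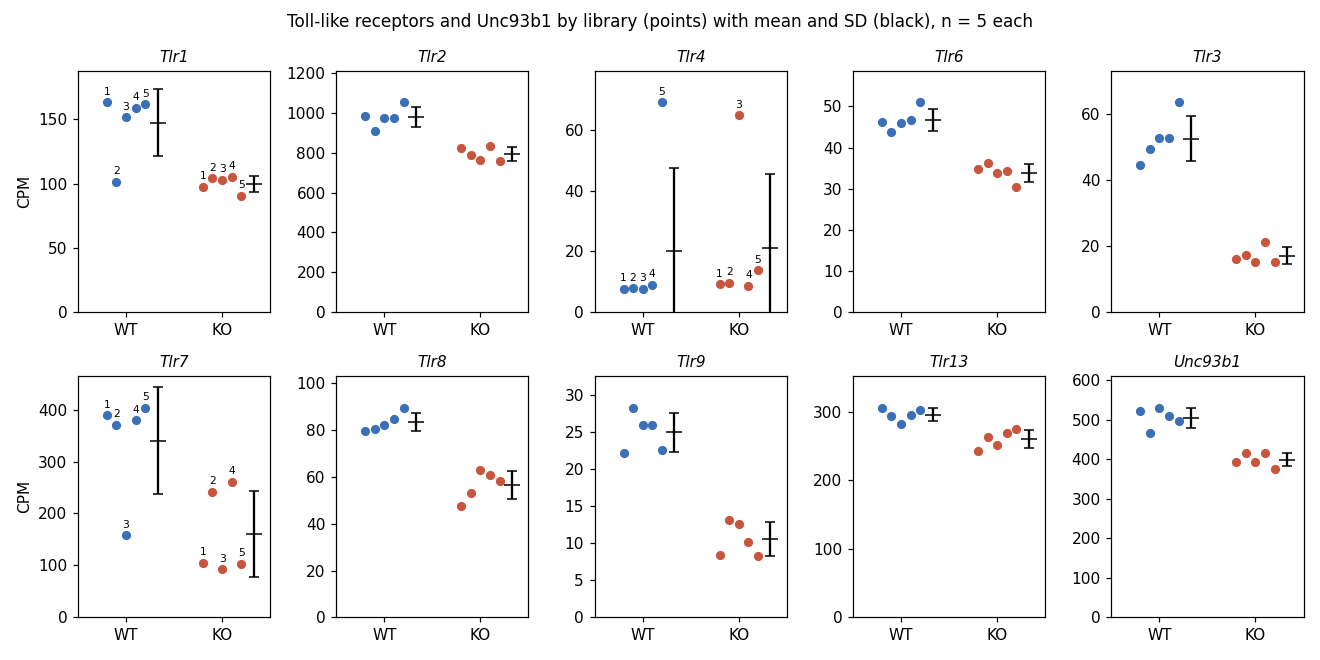
Level of each gene in CPM (vertical axis, from 0) for the 5 WT (blue) and 5 KO (red) libraries, 1 point per library, with the mean and SD in black (the lower SD bars of Tlr4 run below the axis). Replicate numbers stand beside the points of Tlr1, Tlr4 and Tlr7, where libraries of the same genotype fall apart, and for the other 7 genes all KO points lie under all WT points.

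Tlr3, the receptor for double-stranded RNA (ENSMUSG00000031639, chromosome 8, 45848702 to 45864117 as the table lists it), showed the largest fold. Its level was 44.6, 49.5, 52.6, 52.6 and 63.5 CPM in WT 1 to WT 5 and 16.2, 17.3, 15.1, 21.4 and 15.3 CPM in KO 1 to KO 5. The groups were far apart, with the highest KO library, KO 4, well below the lowest WT library, WT 1. The means were 52.6 ± 6.96 and 17.1 ± 2.56 CPM (SD, n = 5 each), and the log2 level fell by 1.62 ± 0.11 (estimate ± SE; edgeR adjusted p = 1.05e-06). Another row within its span, Gm45542, held 0 to 2 counts per library.

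Tlr9, the receptor for unmethylated CpG DNA (ENSMUSG00000045322, chromosome 9, 106099797 to 106104082), was low in both genotypes. It had 22.1, 28.3, 25.9, 25.9 and 22.5 CPM in WT 1 to WT 5 and 8.43, 13.2, 12.5, 10.2 and 8.22 CPM in KO 1 to KO 5. KO 2 and KO 3 were the highest KO libraries and still lay under every WT library. The log2 level fell by 1.24 ± 0.14 (edgeR adjusted p = 3.21e-05), on 163 to 528 counts per library.

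Tlr8 (ENSMUSG00000040522, chromosome X, 166025692 to 166047325), the neighbour of Tlr7 and with it a sensor of single-stranded RNA, had 79.6 to 89.5 CPM in WT and 47.6 to 62.7 CPM in KO, with means of 83.3 ± 3.98 and 56.4 ± 6.12 CPM. The groups did not overlap, and the log2 level fell by 0.56 ± 0.07 (edgeR adjusted p = 0.000103). Tlr13, a sensor of bacterial ribosomal RNA that humans lack (ENSMUSG00000033777, chromosome X, 105186810 to 105204099), had the smallest change of those called. It ranged from 282 to 307 CPM in WT and from 243 to 275 CPM in KO, a decrease of 0.19 ± 0.04 on the log2 scale (edgeR adjusted p = 0.00505). When scaled by library totals instead of TMM, which shifted the all-gene median from 0.01 to 0.12 (log2), Tlr13 was at -0.07 and lost its call (adjusted p = 0.128).

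Tlr7 (ENSMUSG00000044583, chromosome X, 166087925 to 166113554) took 2 distinct levels within each genotype. In WT it had 389, 370.1, 380 and 404 CPM in libraries 1, 2, 4 and 5 and 158 CPM in WT 3. In KO it had 242 and 261 CPM in KO 2 and KO 4 and 106, 92.8 and 103 CPM in KO 1, KO 3 and KO 5. The groups overlapped because WT 3 lay under KO 2 and KO 4. Of the 25 pairs of a KO and a WT library, KO was the lower in 23. The log2 level fell by 1.08 ± 0.34 (edgeR adjusted p = 0.0345). That call was not firm: it was lost in 11 of 20 alternative fits, among them those that left out 1 WT library other than WT 3, or 1 of KO 1, KO 3 and KO 5, with adjusted p from 0.065 to 0.149 in the fits that lost it and from 0.0115 in those that kept it.

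Unc93b1 (ENSMUSG00000036908, chromosome 19, 3985186 to 3999340) was lower in KO as well. It had 522, 467, 531, 509 and 497 CPM in WT 1 to WT 5 and 393, 416, 394, 415 and 376 CPM in KO 1 to KO 5. The groups were separate, WT 2 being the lowest WT library and KO 2 the highest KO library, and the log2 level fell by 0.34 ± 0.04 (edgeR adjusted p = 0.000108). The ratio of Tlr9 to Unc93b1 counts within a library, which does not depend on scaling, had a log2 of -4.35 ± 0.20 in WT and -5.27 ± 0.28 in KO. It was thus lower in KO by 0.93 (log2), with no overlap between the groups (two-sided exact permutation test, p = 0.00794, which is as small as 5 against 5 can give, and Benjamini-Hochberg adjusted p = 0.0317 over 8 ratios). Leaving out WT 1, WT 3, WT 4 or WT 5 raised the adjusted p to 0.0635 in this exact permutation test, with the groups still apart. The ratios of Tlr7 to Tlr8 and of Tlr7 to Tlr9 differed by -0.59 and 0.11 and did not pass (adjusted exact p = 0.381 and 0.786).

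**Figure D2:**
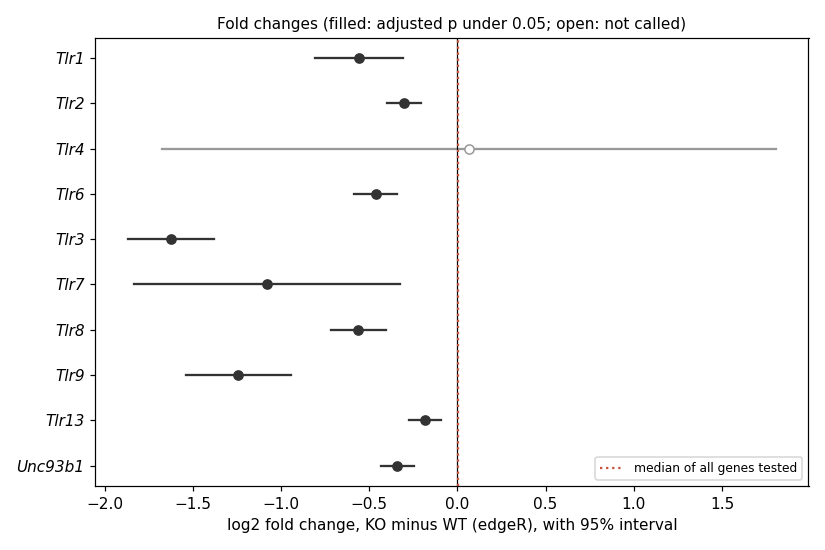
Log2 fold change, KO minus WT (horizontal axis), with its 95% interval for each gene. Filled points passed at an adjusted p under 0.05, the open point of Tlr4 did not, and the dotted line is the median of all genes tested (0.01), which lies close to 0. Tlr3 and Tlr9 lie farthest left with intervals away from 0, and the intervals of Tlr4 and Tlr7 are the widest.

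Among the surface receptors Tlr2, which senses bacterial lipopeptides, was by far the most abundant (ENSMUSG00000027995, chromosome 3, 83743579 to 83749074). It had 985, 910.0, 972, 973 and 1053 CPM in WT 1 to WT 5 and 821, 788, 764, 834 and 758 CPM in KO 1 to KO 5. The change was small but the libraries of a genotype lay close together and the groups did not overlap. The log2 level fell by 0.30 ± 0.04 (edgeR adjusted p = 0.000263).

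Tlr6, a partner of TLR2 (ENSMUSG00000051498, chromosome 5, 65109374 to 65117440), had 43.9 to 51.0 CPM in WT and 30.3 to 36.2 CPM in KO, with means of 46.7 ± 2.62 and 33.9 ± 2.16 CPM. The log2 level fell by 0.46 ± 0.06 (edgeR adjusted p = 7.22e-05). The count ratio of Tlr6 to Tlr2 was lower in KO by 0.16 (log2), from -4.39 ± 0.02 to -4.55 ± 0.08 (exact permutation test, p = 0.00794, adjusted 0.0317), with no overlap between the groups. This call too was lost without WT 1, WT 3, WT 4 or WT 5 (adjusted exact p = 0.0635), with the groups still apart.

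Tlr1, the other partner (ENSMUSG00000044827, chromosome 5, 65082022 to 65090906), had 163, 152, 159 and 162 CPM in WT 1, WT 3, WT 4 and WT 5 and 101 CPM in WT 2. The KO libraries held 97.4, 104, 103, 105 and 90.4 CPM, so WT 2 fell among them and the other 4 WT libraries lay above all 5. In WT 2 Tlr6 was at 43.9 CPM, also the lowest of WT. The log2 level of Tlr1 fell by 0.56 ± 0.11 (edgeR adjusted p = 0.00303), and by 0.66 without WT 2. The count ratio of Tlr1 to Tlr6 differed by -0.07 (log2; exact permutation test, p = 0.579, adjusted 0.662) and by -0.18 without WT 2 (adjusted p = 0.0212). That of Tlr1 to Tlr2 differed by -0.24 (exact p = 0.0635, adjusted 0.169) and by -0.34 without WT 2 (adjusted p = 0.0212).

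Tlr1 and Tlr6 are adjacent genes that share stretches of identical sequence, which bears on how their reads could be assigned. Of all runs of 50 bases in the longest coding transcript of each in the GENCODE M21 annotation, 15.3% of those of Tlr1 also occur in Tlr6 and 12.5% of those of Tlr6 occur in Tlr1. Tlr6 shares 2 more with Ctsq. The longest run common to both is 229 bases long, at coding bases 1468 to 1696 of Tlr1 and 1507 to 1735 of Tlr6, and is shown because reads within it cannot be told apart.
Tlr1 and Tlr6: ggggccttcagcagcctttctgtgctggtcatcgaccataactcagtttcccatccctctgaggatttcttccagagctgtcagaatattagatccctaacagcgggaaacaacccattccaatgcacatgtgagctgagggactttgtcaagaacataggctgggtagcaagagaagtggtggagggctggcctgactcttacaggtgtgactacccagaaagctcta
Reads from such stretches may have been split or dropped by the authors' counting, and the values of both genes carry that limit. Tlr2, Tlr4, Tlr7, Tlr8, Tlr9, Tlr13 and Unc93b1 had no run of 50 bases in a transcript of another gene, and for Tlr3 1.56% of runs were shared with Gm45542.

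Tlr4, the receptor of the LPS used on these cells (ENSMUSG00000039005, chromosome 4, 66745821 to 66848521), could not be compared with any precision. It had 7.70, 7.81, 7.68 and 8.91 CPM in WT 1 to WT 4 and 69.2 CPM in WT 5. The KO libraries had 9.22, 9.58, 8.64 and 13.8 CPM in KO 1, KO 2, KO 4 and KO 5 and 64.8 CPM in KO 3. In raw counts WT 5 had 1390 and KO 3 had 1448, while the other 8 libraries had 146 to 273. The log2 fold change was 0.07 with a 95% interval from -1.67 to 1.81 (edgeR adjusted p = 0.964). It was 1.43 without WT 5, -0.98 without KO 3 and 0.36 without both (adjusted p = 0.101), the last a setting chosen after the values were seen. A table row without a symbol that lies inside the listed span of Tlr4 (ENSMUSG00000121059, 66762713 to 66764269) held 229 to 330 counts in every library, WT 5 and KO 3 included. The ratios of Tlr4 to Tlr2 and to Ly96 differed by 0.55 and 0.29 and did not pass (adjusted exact p = 0.662 for both). Without both WT 5 and KO 3 these ratios were higher in KO by 0.60 and 0.44 (log2). They did not pass there either (adjusted exact p = 0.0571 for both).

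**Figure D3:**
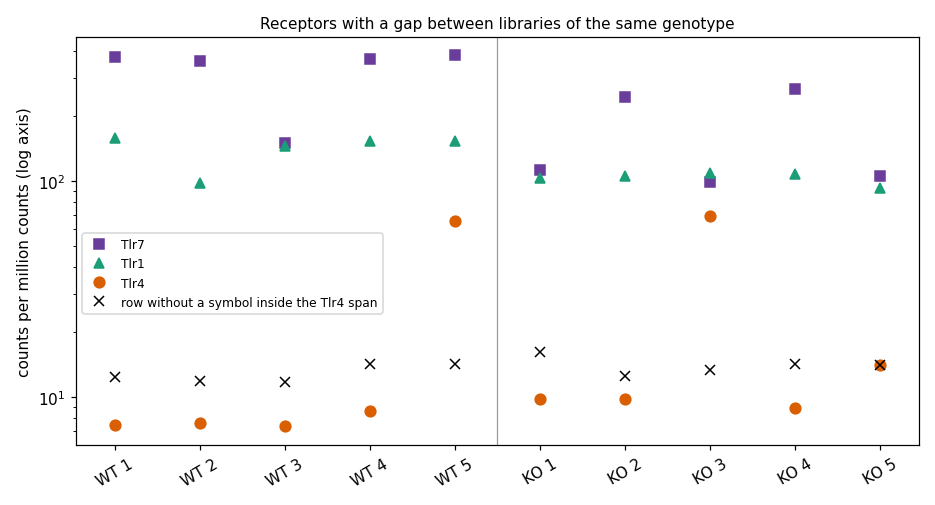
CPM on library totals, without TMM factors (log axis), of Tlr7, Tlr1 and Tlr4 and of the row without a symbol inside the Tlr4 span, in each library (horizontal axis, WT left and KO right of the line). Tlr4 is high in WT 5 and KO 3, Tlr7 is low in WT 3, KO 1, KO 3 and KO 5, and Tlr1 is low in WT 2, so the libraries that stand apart differ from gene to gene.

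Steps of this kind were counted over the whole table. A step was counted where the largest gap between neighbouring libraries was at least 0.5 in log2 CPM and at least 70% of the range of that genotype, for genes with a mean log2 CPM of 3 or more. By that count, made after the values were seen, 439 of 9310 genes (4.72%) had a step in WT or KO and 110 (1.18%) in both, among them Tlr4 and Tlr7. Of the 10 genes described here 3 had a step in either genotype. The size of the Tlr4 step was rare, since only 2 genes, Tlr4 included, had steps as large as its own in both genotypes. In none of the other 109 genes with a step in both genotypes did the libraries above the step match those of Tlr4 in both genotypes. The same held for Tlr7. Matches in 1 genotype alone, or with the high and low libraries exchanged, were not counted for Tlr4 and Tlr7. Map3k7 and Tab2, named after their values were seen, had a step in WT with WT 5 below WT 1 to WT 4. The cause was not tested. Without both WT 5 and KO 3, as without both KO 1 and KO 3, 8 of the 10 genes were lower, Tlr7 being the one that lost its call.

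Per gene length, Tlr2 was the highest of the 10 in both genotypes, at 311 ± 13.9 CPM per kilobase in WT and 274 ± 13.4 in KO (means and SDs over 5 libraries each, scaled by library totals). It made up 67.1% to 70.8% of the summed per-length level of the 9 receptors in WT and 69.2% to 73.8% in KO. The lengths used were those implied by the authors' FPKM values. They exceed the longest coding transcript unevenly, at 11508 against 3897 bases for Tlr7 and 11835 against 4407 for Tlr3. For Tlr2 both are 3014 bases. The order, the overlaps and the shares given here hold for these lengths only, and would differ with transcript lengths. Unc93b1 (103 ± 4.98 in WT, 88.0 ± 3.59 in KO) and Tlr13 (64.6 ± 2.18 and 61.5 ± 1.98) followed, and the libraries of these 3 genes did not overlap each other in either genotype. Tlr7 (28.4 ± 8.58 in WT) and Tlr1 (22.96 ± 4.01) overlapped in both genotypes, at 14.4 ± 7.24 and 16.9 ± 1.10 in KO. Tlr8 came next, at 10.2 ± 0.417 in WT and 7.51 ± 0.817 in KO. In WT Tlr9 (6.88 ± 0.748) and Tlr6 (6.66 ± 0.323) overlapped, whereas in KO every Tlr9 library (2.42 to 3.85) lay under every Tlr6 library (4.62 to 5.50). Tlr3 had 4.26 ± 0.528 in WT and 1.497 ± 0.210 in KO, and Tlr4 lay at 1.08 to 1.27 in WT and 1.31 to 2.08 in KO outside its 2 high libraries. The other mouse TLR genes Tlr5, Tlr11 and Tlr12 had 0 to 5, 0 to 6 and 0 to 7 counts per library, too few to be tested.

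**Figure D4:**
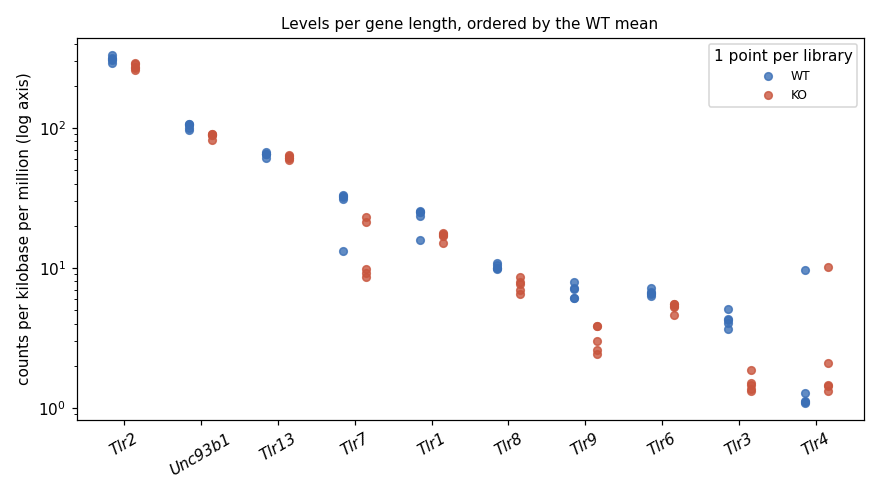
CPM per kilobase of gene on library totals (log axis) for each gene, ordered from left by the WT mean, 1 point per library, WT in blue and KO in red. Tlr2 stands above the others, Tlr9 and Tlr3 drop most between WT and KO, and single libraries of Tlr7, Tlr1 and Tlr4 stand apart from their group.

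Genes that carry the receptors to their place or help them bind were mixed. Of 17 accessory and trafficking genes 7 fell and 5 rose, with a median log2 fold change of -0.07, or 0.05 with library totals (7 lower, 6 higher). Library totals also moved the median of all genes tested, from 0.01 to 0.12. The library-totals medians of this list and of those below are to be read against that 0.12. Cd180, a TLR homologue of the surface that acts with Ly86, went from 369 ± 22.99 to 190 ± 11.7 CPM, 1.94-fold lower, and Ly86 from 64.5 ± 5.09 to 34.5 ± 1.68 CPM, 1.87-fold lower (edgeR adjusted p = 3.16e-07 and 6.79e-07). Slc15a3, an endolysosomal peptide transporter, fell by 0.66 ± 0.03 on the log2 scale and Tasl, an adaptor of endolysosomal TLRs that binds SLC15A4, by 0.71 ± 0.09. The following genes of this list were named after their values were seen. Hsp90b1, the chaperone gp96 of the endoplasmic reticulum on which most TLRs depend, and its partner Cnpy3 moved the opposite way to the receptors, rising by 0.26 ± 0.06 and 0.18 ± 0.04 on the log2 scale (edgeR adjusted p = 0.00472 and 0.00226). Ly96, which encodes MD-2, the LPS-binding partner of TLR4, had 13.8 ± 1.18 CPM in WT and 13.5 ± 1.55 CPM in KO (adjusted p = 0.809), and Cd14, which hands LPS to that complex, rose by 0.13 ± 0.03 (adjusted p = 0.00953).

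Of 10 enzymes that cleave endosomal receptors or their nucleic acid ligands 6 fell and 2 rose, with a median log2 fold change of -0.21, or -0.10 with library totals (6 lower, 3 higher). Pld4, an endolysosomal exonuclease that limits TLR9 ligands, fell from 34.7 ± 1.68 to 12.9 ± 1.36 CPM, 2.69-fold lower, with no overlap between the groups (edgeR adjusted p = 1.49e-07). Dnase2a, the lysosomal DNase that digests DNA taken up by the cell, was 1.47-fold higher in KO, with 80.9 ± 3.26 CPM in WT and 119 ± 21.9 CPM in KO (edgeR adjusted p = 0.00135). Rnaset2a and Rnaset2b, named here after their values were seen, both fell and are nearly identical, so how their reads were divided is uncertain.

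Of 20 adaptors and kinases 9 fell, 1 rose and 10 did not pass, with a median log2 fold change of -0.17. With library totals 7 fell and 2 rose, with a median of -0.06. Myd88 had the largest decrease of the list, from 108 ± 4.97 to 73.0 ± 2.85 CPM (edgeR adjusted p = 2.21e-06), and Ticam1, the gene of TRIF, named after its value was seen, fell by 0.46 ± 0.05 on the log2 scale. Among 11 negative regulators 3 fell and 8 did not pass, with a median of -0.14, and with library totals 2 fell and 1 rose, with a median of -0.02. They included Trafd1, which fell by 0.64 ± 0.09, and Tnfaip3, the gene of the ubiquitin-editing enzyme A20, which fell by 0.98 ± 0.18. Tnfaip3 was highest in WT 4, at 340.3 CPM, and without WT 4 fell by 0.72. All 9 genes of the 4 lists named for a change of at least 0.5 kept their call in each of the 20 alternative fits. In the main fit 70.6% of the accessory and trafficking genes, 80% of the enzymes and 50% of the adaptors and kinases were called. For the negative regulators the share was 27.3%, near the 29.1% of all genes called. With library totals 5592 of all 14436 genes were called, 4231 of them higher and 1361 lower.

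**Figure D5:**
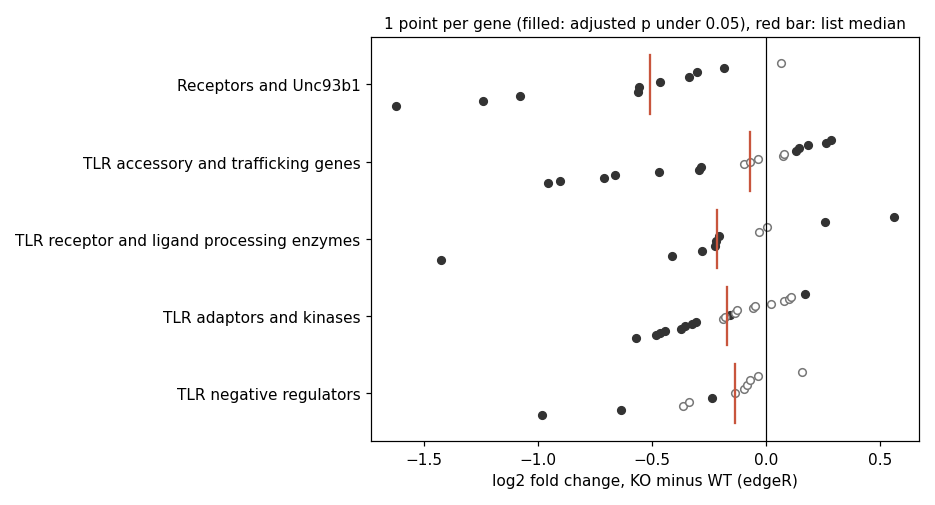
Log2 fold change, KO minus WT (horizontal axis), of the 9 receptors with Unc93b1 and of the genes in 4 lists around them, 1 point per gene, filled where the adjusted p was under 0.05 and with a red bar at each list's median. The receptor row has its median at -0.51 and the other rows lie between -0.21 and -0.07, with called genes on both sides of 0 in 3 of the 4 lists.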

How the data were processed

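RNA-seq gene counts of 10 mouse macrophage libraries were analysed. The authors deposited whole-number counts per gene and library, and FPKM beside them, per the file headers. FPKM in WT was used only to recover gene lengths (largest relative spread 3.01e-06 over the 10 genes). CASAVA 1.8 and TopHat2 2.0.6 were used, and mm10 and GRCm39 are named without a role, per the submitters' processing notes. The counter, annotation and strand setting: not given in the sources used here. Coordinates are as the table lists them, and 0 of the 10 genes had the same position in GRCm38. WT columns were joined by name, the SI columns by elimination, and 5 FPKM columns were not used.

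KO was compared with WT by the quasi-likelihood test of edgeR 4.0.16 under R 4.3.3, after TMM scaling and filterByExpr (minimum count 10). Benjamini-Hochberg adjustment ran over all 14436 genes kept, and genes under 0.05 were called. P-values of ratios are exact permutation tests. CPM values carry the TMM factors, which averaged 0.961 in WT and 1.04 in KO, except per-length levels and the plot of steps between libraries, which use library totals. The procedure was run on simulated data, which held no steps between libraries of a genotype and so do not cover Tlr1, Tlr4 and Tlr7. No libraries were duplicates (chi-square per gene at least 9.71). Floors cover counting error only. Named genes were the 10 members, list genes called with a log2 change of at least 0.5, genes of the 8 ratios, and per member the gene most alike. Others are marked as named after their values were seen, or are cell type markers and rows that share position or sequence with a member. The members and lists were chosen with earlier results of these data known. The motif searches read both strands. Alternatives used DESeq2 1.42.0 and limma 3.58.1 among others.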

Additional observations from a re-analysis of the deposited data

Results flagged for a closer look

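In groups of 5 libraries, a library was picked out where its gap to the nearest other exceeded 0.71 of the group's range. Chance does so for about 1 in 20 groups, and 36 groups were checked, 20 of single genes and 16 of count ratios. For Tlr4, WT 5 stood apart at 69.2 CPM (the others 7.68 to 8.91) and KO 3 at 64.8 CPM (the others 8.64 to 13.8). For Tlr7, WT 3 stood apart at 158 CPM (the others 370.1 to 404), and for Tlr1, WT 2 at 101 CPM (the others 152 to 163).

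These libraries also stood apart in 6 of the 16 groups of log2 count ratios. Each of these ratios holds the gene already flagged in that library, so they are not separate observations. WT 5 was at -3.93 for Tlr4 to Tlr2 and at 2.41 for Tlr4 to Ly96, and KO 3 at -3.56 for Tlr4 to Tlr2. WT 3 was at 0.94 for Tlr7 to Tlr8. WT 2 was at 1.21 for Tlr1 to Tlr6 and at -3.17 for Tlr1 to Tlr2. The ratios without Tlr1, Tlr4 or Tlr7, namely Tlr6 to Tlr2 and Tlr9 to Unc93b1, had no such library, nor had Tlr7 to Tlr9, and Tlr4 to Ly96 had none in KO. The cause was not tested.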

How the results depend on the processing

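Tlr1, Tlr2, Tlr3, Tlr6, Tlr8, Tlr9 and Unc93b1 stayed lower and called in all 20 alternative fits, Tlr13 in 19 and Tlr7 in 9. Either 8 or 9 of the 10 genes were called lower in each fit. With library totals 4231 genes were called higher and 1361 lower in the whole table. There Tlr2 was at -0.19 and Unc93b1 at -0.23 (log2), against -0.30 and -0.34 in the main fit. Tlr4 was not called in the 19 fits that gave it an adjusted p, and the DESeq2 Wald test gave none. With the replicate number as a block (replicate block) 3780 genes were called, and 9 of the 10 were lower, no call among them changing. Same-numbered libraries correlated at -0.11 to 0.18, so the numbers were not taken as pairs. Of the ratios, Tlr6 to Tlr2 ranged from -0.19 to -0.14 with 1 library left out and Tlr9 to Unc93b1 from -0.99997 to -0.85. Both lost significance without WT 1, WT 3, WT 4 or WT 5 (adjusted exact p = 0.0635). The groups still did not overlap there, and with so few libraries the exact test moves in coarse steps. Both also lost it without both KO 1 and KO 3 (-0.18 and -0.93, adjusted exact p = 0.0714). The same held without both WT 5 and KO 3 (-0.17 and -1.03, adjusted exact p = 0.0571), a setting chosen after the values were seen. In the last pair of settings the fewer splits allow no smaller unadjusted p, while the adjusted p also depends on the other ratios. Tlr1 to Tlr6 ranged from -0.18 to -0.029 and Tlr1 to Tlr2 from -0.34 to -0.20, the lowest of each without WT 2.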

Other observations

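For each of the 10 genes, the gene with the most similar profile over the 10 libraries was sought among 11902 others whose log2 CPM averaged 1 or more, by Pearson correlation of log2 CPM. The points share libraries, depth and the difference between genotypes, so the values are a description. Tlr3 was closest to Spryd7 (r = 0.996), Unc93b1 to Tesk1 (0.994), Tlr6 to Parp9 (0.994) and Tlr2 to Rab32 (0.993). Tlr9 was closest to the predicted gene Gm7609 (0.985), Tlr13 to Ctnnd1 (0.981) and Tlr8 to Secisbp2l (0.977). For the 3 genes with a step between libraries the best values were lower, Tlr1 with Rnpep (0.970), Tlr7 with Dld (0.961) and Tlr4 with Asah1 (0.948).

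The Tlr1 step, with WT 2 below the other 4 WT libraries, was shared by 26 of the other 272 genes with a step in WT. Among the 26 genes were Cenpb, Cox7a2l, Ifitm2 and Scd2, named after their values were seen.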
